A study of Mus musculus with 8 samples.

Results

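The response of kidney endothelium to endotoxin was compared between SOCS3iKEO mice and wild-type (WT) mice, over all genes of a targeted sequencing panel. The SOCS3iKEO LPS group held 2 mice and the WT LPS group 3, so 5 of the 8 libraries of the study carry the comparison. The SOCS3iKEO saline group (1 mouse) and the WT saline group (2 mice) give the same genotype difference without endotoxin. The labels do not spell out SOCS3iKEO, which is taken here as an inducible endothelial knockout of Socs3. LPS mice received 250 µg lipopolysaccharide, the endotoxin of gram-negative bacteria, in 250 µl by 1 intraperitoneal injection, saline mice received the same volume, and kidneys were taken after 14 hours. Per the labels' protocols, mice carried a transgene for an EGFP-tagged ribosomal protein L10a that Cre recombinase switches on under a tamoxifen-inducible Cdh5 driver (cdh5-CreERT2), and the labels give this for all groups. The tag lets ribosomes be pulled down with the mRNA they translate. Cells that expressed Cdh5 while tamoxifen acted, and cells that descend from them, can contribute. Another label of the same samples speaks of minced kidney lysed in Trizol and does not describe the pull-down. Mice were assigned to LPS or saline at random within genotype, sex and litter, but no label gives the strain, age or sex of a library. Each library carries its own number, read here as 1 mouse, so the spread between libraries includes that between animals.

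Socs3 encodes a feedback inhibitor that cytokine signalling switches on. Interleukin 6 and its relatives signal through the receptor subunit gp130, JAK kinases and the transcription factor STAT3, and STAT3 induces Socs3, whose protein binds gp130 and the JAKs and shuts the signal off. In endothelium exposed to endotoxin this loop runs beside the Toll-like receptor, NF-kB and interferon pathways, which drive chemokines, adhesion molecules and antiviral genes.

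Libraries held 8431813 and 14096582 reads in SOCS3iKEO LPS and 11002719 to 13507981 in WT LPS, and 7093794 to 14877519 after saline. Values were deposited relative to 1000000 panel reads (RPM), and 1 read was worth 0.0672 to 0.141 RPM. Replicates differed by 23.7 to 80.7 times the read-sampling variance per degree of freedom. The 10 most abundant genes took 14.97% and 12.66% of reads in SOCS3iKEO LPS, against 7.05%, 6.21% and 6.92% in WT LPS. TMM scaling, which matches libraries on the bulk of their genes, gave factors of 0.671 and 0.709 in SOCS3iKEO LPS, against 0.994, 1.07 and 1.01 in WT LPS. On the first principal component (67.8% of the variance) the SOCS3iKEO LPS libraries lay at -118 and -96.4, against -7.83, 29.9 and 18.5 for WT LPS and 54.2 to 63.9 after saline. Reads on 4 Y-linked genes were present in WT LPS 2, WT LPS 3 and WT saline 2 (3320 to 3987 reads), and the other 5 libraries, every SOCS3iKEO library included, had 1 to 3. By animal number, the SOCS3iKEO LPS mice belong with the WT saline mice (6992 to 6998) and the WT LPS mice with the SOCS3iKEO saline mouse (7032 to 7038). A difference between these runs of numbers cannot be told apart from the genotype difference after LPS, nor from that after saline. Pan-endothelial markers were present in every library, with a summed level of 5433 and 7364 deposited RPM in SOCS3iKEO LPS, against 8142, 10325 and 10474 in WT LPS, none of the 20 at 0. On the TMM scale this sum was 8092 and 10388 in SOCS3iKEO LPS, against 8188, 9676 and 10391 in WT LPS, so the groups overlapped (two-sided exact permutation p = 0.8). In such bulk samples fewer cells of a type and less RNA per cell cannot be told apart. Scaled RPM below means RPM divided by the TMM factors, given in library order.

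Across the panel, 12820 of 23930 genes passed the filter on low reads and were tested with limma on log2(scaled RPM + 1), with Benjamini-Hochberg adjustment over all of them and a threshold of 0.05. SOCS3iKEO LPS differed from WT LPS at 6502 genes on the TMM scale, with 3075 higher (24% of genes tested) and 3427 lower (26.7%). On RPM as deposited, 1720 were higher (13.4%) and 5346 lower (41.7%), so the share of calls that were higher was 47.3% on the TMM scale and 24.3% as deposited. The median log2 fold change over all genes was -0.04 on the TMM scale and -0.45 as deposited, so the median differed by -0.41. Counts of list members below are to be read against these shares of all genes. The lists were chosen with earlier results of these data known, so their counts describe the chosen members only. No gene was called in opposite directions. Of the genes called on both scales, 1720 were higher (13.4% of genes tested) and 3426 lower (26.7%), 1355 were higher on the TMM scale alone, and 1920 were lower as deposited alone. A difference of at least 1 on the log2 scale was reached by 2190 of the genes called higher and 2403 of those called lower on the TMM scale, and of at least 2 by 644 and 549. Both SOCS3iKEO LPS libraries lay above all 3 WT LPS libraries at 4089 genes (31.9%) and below them at 4521 (35.3%). In the 5 libraries without Y-linked reads, which leave 1 residual degree of freedom, limma called 0 genes in either direction, with 3104 at an unadjusted p under 0.05. With a term for Y-linked reads in the fit of all 8 libraries, 2192 were higher and 2439 lower. WT LPS 1 was the WT LPS library nearest to SOCS3iKEO LPS at 58.2% of the called genes, WT LPS 3 at 28.7% and WT LPS 2 at 13.1%.

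**Figure D1:**
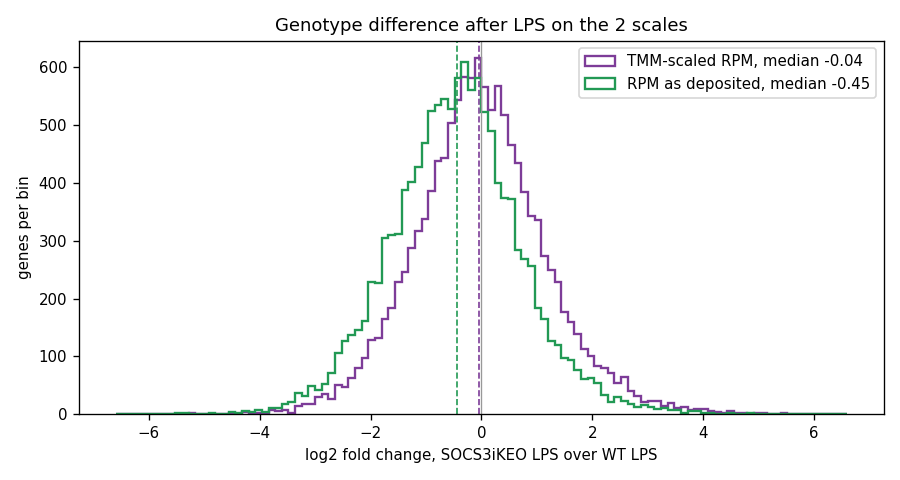
Number of genes (y axis) by log2 fold change of SOCS3iKEO LPS over WT LPS (x axis) for TMM-scaled RPM and for RPM as deposited, with dashed lines at the medians. The distribution as deposited lies lower, with a median of -0.45 against -0.04 on the TMM scale.

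Socs3 itself (chromosome 11, 117966079 to 117970047, minus strand) stood at 3.53 and 2.50 scaled RPM in SOCS3iKEO LPS, against 9.94, 1.18 and 2.35 in WT LPS, from 20 and 25 reads in SOCS3iKEO LPS, against 118, 17 and 26 in WT LPS. WT LPS 1 was the highest library and WT LPS 2 the lowest, so the groups overlapped. With limma the adjusted p was 0.885, at a log2 fold change of -0.11 (SE 0.57), so no difference was called. Without WT LPS 1 the estimate turned positive (0.57, adjusted p = 0.148), and with a term for Y-linked reads it was -0.99 (adjusted p = 0.131). After saline Socs3 was at 0.226 scaled RPM in SOCS3iKEO and at 0.4998 and 0.161 in WT, from 2, 9 and 3 reads. The position of the amplicon relative to the deleted part is not given, so its level does not check the genotype labels, which are used as given. Of 11 tested genes within 250000 bases of Socs3, itself included, Afmid, Pgs1 and Cyth1 passed as higher and Tnrc6c, Tmc6, Tmc8, Birc5 and Tha1 as lower on the TMM scale, beside 24% and 26.7% of all genes.

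Other negative regulators of the pathway were mixed. Of the SOCS, PIAS and phosphatase list, 12 of 14 members were tested: 5 passed as higher and 1 as lower on the TMM scale, and 3 and 4 as deposited. Socs2, another STAT-induced feedback inhibitor, was at 34.98 and 30.2 scaled RPM in SOCS3iKEO LPS, against 6.15, 1.67 and 2.62 in WT LPS (log2 fold change 3.03, SE 0.39, adjusted p = 0.000386). Both SOCS3iKEO LPS libraries were far above all 3 WT LPS libraries. Socs6 (1.63) and the phosphatase gene Ptpn2 (1.26), which removes phosphate from JAKs and STATs, were also called higher on both scales, the values being log2 fold changes, as are other single values in parentheses below. Pias3, an inhibitor of STAT3, was at 4.42 and 11.8 scaled RPM in SOCS3iKEO LPS, against 31.2, 38.5 and 30.2 in WT LPS and was called lower (-2.04).

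Calls among ligands and receptors of the interleukin 6 family were all in the higher direction on the TMM scale. Of 10 of 13 listed genes tested, 7 passed as higher and 0 as lower on the TMM scale, and 4 and 1 as deposited. Il6 (chromosome 5, 30013114 to 30019981, plus strand) was at 493 and 357 scaled RPM in SOCS3iKEO LPS, against 19.8, 2.78 and 5.95 in WT LPS (log2 fold change 5.68, SE 0.58, adjusted p = 0.000156). The lower SOCS3iKEO LPS library stood well above the highest WT LPS library, and the saline libraries held 0 to 3 reads. Lif, a ligand of the same family, was at 16.6 and 7.71 scaled RPM in SOCS3iKEO LPS, against 3.45, 0.555 and 0.812 in WT LPS. Osmr, the oncostatin M receptor, was at 269.6 and 188 scaled RPM in SOCS3iKEO LPS, against 45.5, 40.9 and 56.9 in WT LPS. Il6st, which encodes gp130, was at 344 and 278 scaled RPM in SOCS3iKEO LPS, against 98.9, 122 and 128 in WT LPS. The groups did not overlap at any of these 3 genes, whose log2 fold changes were 2.41, 2.23 and 1.41.

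Downstream, the kinases and STATs did not move one way: of 9 of 11 tested, 4 passed as higher and 4 as lower on the TMM scale, and 3 and 4 as deposited. Stat3 was at 2810 and 2313 scaled RPM in SOCS3iKEO LPS, against 899, 523 and 803 in WT LPS (log2 fold change 1.82, SE 0.26, adjusted p = 0.000636). Jak2 was at 162 and 146 scaled RPM in SOCS3iKEO LPS, against 42.8, 25.5 and 25.7 in WT LPS, and Jak1 at 2173 and 1137 scaled RPM in SOCS3iKEO LPS, against 479, 567 and 788 in WT LPS. All 3 were called higher on both scales. Tyk2, the kinase of the type I interferon and interleukin 12 receptors, went the other way, at 3.18 and 6.604 scaled RPM in SOCS3iKEO LPS, against 42.2, 143 and 113 in WT LPS (log2 fold change -3.98, SE 0.47, adjusted p = 0.000289).

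Most genes of a chosen list of 20 STAT3 targets were called higher. Of 20 of 20 tested, 17 passed as higher and 2 as lower on the TMM scale, and 14 and 2 as deposited, with a median log2 fold change of 2.30 on the TMM scale and 1.74 as deposited. Cebpd, a transcription factor of the acute phase (chromosome 16, 15887286 to 15891031, plus strand), differed most of all genes called higher, at 454 and 432 scaled RPM in SOCS3iKEO LPS, against 9.10, 2.29 and 4.599 in WT LPS (log2 fold change 6.28, SE 0.41, adjusted p = 3.83e-05). Saline libraries held 0.323 to 0.679 scaled RPM of it. Fosl2, an AP-1 subunit, was at 6870 and 3906 scaled RPM in SOCS3iKEO LPS, against 526, 150.1 and 391.5 in WT LPS. Myc, a growth regulator, was at 1263 and 880.1 scaled RPM in SOCS3iKEO LPS, against 216, 48.6 and 87.1 in WT LPS. Timp1, an inhibitor of matrix metalloproteinases, was at 40.3 and 62.2 scaled RPM in SOCS3iKEO LPS, against 8.93, 2.78 and 2.25 in WT LPS. In each of these the SOCS3iKEO LPS libraries lay several-fold above the WT LPS libraries, with log2 fold changes of 4.04, 3.42 and 3.37. Birc5 (survivin, a mitotic gene) and Ccnd1 were the STAT3 targets called lower, at -2.96 and -1.07. The acute-phase list was less uniform: of 19 of 25 tested, 7 passed as higher and 1 as lower on the TMM scale, and 3 and 2 as deposited. Lcn2, which encodes the siderophore-binding lipocalin 2, was already abundant in WT LPS, at 8479 and 9397 scaled RPM in SOCS3iKEO LPS, against 3555, 2870 and 3423 in WT LPS (log2 fold change 1.45). Steap4, a metalloreductase, was at 81.6 and 76.7 scaled RPM in SOCS3iKEO LPS, against 17.9, 4.51 and 6.31 in WT LPS (3.13). Lbp, the LPS-binding protein, was at 27.0 and 37.9 scaled RPM in SOCS3iKEO LPS, against 84.1, 123 and 135 in WT LPS and was called lower (-1.77).

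Chemokines were among the genes that differed most. Of 13 of 18 chemokines that act on mononuclear cells, 8 passed as higher and 0 as lower on the TMM scale, and 6 and 1 as deposited. The list of neutrophil chemokines and colony-stimulating factors also holds Il6, which was counted with the interleukin 6 family above. Of its 10 of 11 genes tested, 5 passed as higher and 0 as lower on the TMM scale, and 5 and 0 as deposited. Cxcl10, an interferon-induced ligand of CXCR3 (chromosome 5, 92346638 to 92348889, minus strand), was at 30283 and 8379 scaled RPM in SOCS3iKEO LPS, against 437, 177 and 150.1 in WT LPS (log2 fold change 6.13, SE 0.57, adjusted p = 0.000113). SOCS3iKEO LPS 1 held over 3 times the level of SOCS3iKEO LPS 2, and both lay far above every other library. Cxcl11, from the same cluster (chromosome 5, 92359544 to 92365485, minus strand), was at 1140 and 404 scaled RPM in SOCS3iKEO LPS, against 27.8, 16.7 and 6.22 in WT LPS (log2 fold change 5.46, SE 0.57, adjusted p = 0.000161). Cxcl2, a ligand of the neutrophil receptor CXCR2 (chromosome 5, 90903871 to 90905938, plus strand), was at 973 and 778 scaled RPM in SOCS3iKEO LPS, against 32.6, 21.6 and 28.3 in WT LPS (log2 fold change 4.95, SE 0.26, adjusted p = 3.37e-05). Cxcl1 was at 3241 and 2553 scaled RPM in SOCS3iKEO LPS, against 227, 181 and 259.9 in WT LPS, and Csf3, granulocyte colony-stimulating factor, at 577 and 549 scaled RPM in SOCS3iKEO LPS, against 94.8, 26.9 and 49.4 in WT LPS. Cxcl9 was at 3221 and 4154 scaled RPM in SOCS3iKEO LPS, against 499, 212 and 117 in WT LPS. These 3 had log2 fold changes of 3.70, 3.46 and 3.97, and Csf3 was listed at 0 in all 3 saline libraries.

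Promoters of Cxcl10 and Il6 are printed because these cytokine genes rank among the 3 genes that differed most upward, that of Cyp26b1 because it is the gene that differed most downward, and that of Mt1 because it was the most abundant gene of both SOCS3iKEO LPS libraries. Each run is RefSeq sequence of GRCm38.p6 from 250 bases before to 50 after a start, 5′ to 3′ on the gene's strand, at chr5:92348840-92349139 (minus) for Cxcl10, chr5:30012864-30013163 (plus) for Il6, chr8:94178839-94179138 (plus) for Mt1 and chr6:84593761-84594060 (minus) for Cyp26b1. Capitals mark matches on either strand to STAT (TTCNNNGAA), AP-1 (TGANTCA), interferon response (GAAA, any 2 bases, GAAA), NF-kB and cAMP response (TGACGTCA) motifs, and in Mt1 to the metal response core TGCNCNC alone.
Cxcl10: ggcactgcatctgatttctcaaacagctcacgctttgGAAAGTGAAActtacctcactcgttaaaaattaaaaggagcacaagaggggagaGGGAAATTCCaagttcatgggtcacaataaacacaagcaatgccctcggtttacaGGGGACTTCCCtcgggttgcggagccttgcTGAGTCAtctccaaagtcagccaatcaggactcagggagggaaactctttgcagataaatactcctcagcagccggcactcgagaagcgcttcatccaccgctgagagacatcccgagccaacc
Il6: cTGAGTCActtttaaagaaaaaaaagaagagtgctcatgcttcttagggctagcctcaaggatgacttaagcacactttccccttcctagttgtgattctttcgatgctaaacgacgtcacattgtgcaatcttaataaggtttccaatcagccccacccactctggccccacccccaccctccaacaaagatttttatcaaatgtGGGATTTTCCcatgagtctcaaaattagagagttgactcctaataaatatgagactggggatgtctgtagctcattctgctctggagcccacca
Mt1: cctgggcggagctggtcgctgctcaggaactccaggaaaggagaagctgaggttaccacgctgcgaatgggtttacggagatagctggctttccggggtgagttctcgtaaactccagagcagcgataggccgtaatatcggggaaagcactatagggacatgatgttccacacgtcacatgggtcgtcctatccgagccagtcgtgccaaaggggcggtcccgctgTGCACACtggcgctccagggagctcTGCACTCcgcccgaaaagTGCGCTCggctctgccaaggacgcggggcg
Cyp26b1: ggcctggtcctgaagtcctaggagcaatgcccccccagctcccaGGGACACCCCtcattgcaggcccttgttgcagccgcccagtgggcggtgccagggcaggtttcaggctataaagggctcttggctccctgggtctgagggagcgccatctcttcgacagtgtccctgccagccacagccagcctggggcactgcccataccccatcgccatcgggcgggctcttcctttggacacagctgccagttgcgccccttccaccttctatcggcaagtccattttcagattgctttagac
The Cxcl10 window held 1 interferon response match, 3 NF-kB matches, of which a pair overlap, and 1 AP-1 match, and Il6 held 1 AP-1 and 1 NF-kB match. Mt1 held 3 metal response cores and Cyp26b1 held 1 NF-kB match. No STAT letters stood in the windows of Cxcl10, Il6 or Cyp26b1, which says nothing of binding elsewhere. Promoters were found for 9752 of the 12820 genes tested. NF-kB letters stood in 12.3% of the promoters of genes called higher on both scales, 9.82% of those called lower, 10.5% of those tested and 8.46% of all 32851. For AP-1 the shares were 7.83%, 4.74%, 5.30% and 7.81%, for the interferon response 4.74%, 2.44%, 3.08% and 3.44%, for STAT 8.20%, 6.51%, 7.11% and 8.30%, for the cAMP response 2.19%, 2.62%, 2.84% and 1.79%, and for the metal response core 59.7%, 61.7%, 60.2% and 51.0%.

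Mt1, a metallothionein that binds zinc and copper, was at 85277 and 58723 scaled RPM in SOCS3iKEO LPS, against 8615, 1496 and 3662 in WT LPS (log2 fold change 4.29, SE 0.60, adjusted p = 0.000580). Saline libraries held 91.7 to 143 scaled RPM. The groups did not overlap, and WT LPS 1 was the highest of its group. The zinc importers Slc39a8 and Slc39a14 were called higher on the TMM scale (1.87 and 1.45), Slc39a14 not as deposited, and without SOCS3iKEO LPS 1, SOCS3iKEO LPS 2, WT LPS 2 or WT LPS 3 (log2 fold changes of 1.68, 1.25, 1.17 and 1.24) Slc39a14 was not called on the TMM scale either. Of 8 of 10 metallothionein and zinc genes tested, 3 passed as higher and 0 as lower on the TMM scale, and 2 and 0 as deposited.

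The 12 genes per direction named for the size of their change had to be called on both scales, to reach a mean of 3 on the log2 scale and to have no overlap between groups, so their lack of overlap is part of the choice. Beside Cebpd and the cytokine genes, Mx1, an interferon-induced antiviral GTPase (chromosome 16, 97447035 to 97462907, minus strand), was at 429.8 and 297 scaled RPM in SOCS3iKEO LPS, against 8.76, 7.91 and 5.23 in WT LPS (log2 fold change 5.46, SE 0.29, adjusted p = 3.37e-05). Tnfrsf11b, osteoprotegerin, a decoy receptor for RANK ligand (chromosome 15, 54250619 to 54278484, minus strand), was at 90.1 and 99.6 scaled RPM in SOCS3iKEO LPS, against 1.85, 1.53 and 0.902 in WT LPS (log2 fold change 5.32, SE 0.29, adjusted p = 3.37e-05). Akap12, a scaffold for protein kinases A and C (chromosome 10, 4266380 to 4359470, plus strand), was at 1574 and 709 scaled RPM in SOCS3iKEO LPS, against 108, 10.6 and 21.6 in WT LPS (log2 fold change 5.11, SE 0.77, adjusted p = 0.000837). WT LPS 1 stood out among the WT LPS libraries for Akap12, and the WT LPS libraries of Mx1 and Tnfrsf11b lay close together. Tiparp, an ADP-ribosyltransferase induced by the aryl hydrocarbon receptor (chromosome 3, 65528410 to 65555518, plus strand), was at 446 and 381 scaled RPM in SOCS3iKEO LPS, against 16.8, 7.91 and 12.1 in WT LPS (log2 fold change 5.02, SE 0.29, adjusted p = 3.37e-05). Cd14, the LPS co-receptor of TLR4, was at 3964 and 2851 scaled RPM in SOCS3iKEO LPS, against 249.5, 65.9 and 115 in WT LPS (log2 fold change 4.75, SE 0.47, adjusted p = 0.000141). Smim3, a small membrane protein gene, was at 108 and 78.0 scaled RPM in SOCS3iKEO LPS, against 2.27, 2.29 and 3.43 in WT LPS (log2 fold change 4.67, SE 0.27, adjusted p = 3.37e-05). For Tiparp and Smim3 the WT LPS level was near that of the saline libraries. For Tnfrsf11b, and for Gldc below, every WT LPS library lay under every saline library (2.83 to 4.95 and 3.71 to 6.33 scaled RPM). Gldc, the glycine decarboxylase of mitochondria (chromosome 19, 30098447 to 30175429, minus strand), was at 145 and 46.8 scaled RPM in SOCS3iKEO LPS, against 2.86, 1.53 and 2.80 in WT LPS (log2 fold change 4.65, SE 0.45, adjusted p = 0.000128), with SOCS3iKEO LPS 1 about 3 times SOCS3iKEO LPS 2.

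**Figure D2:**
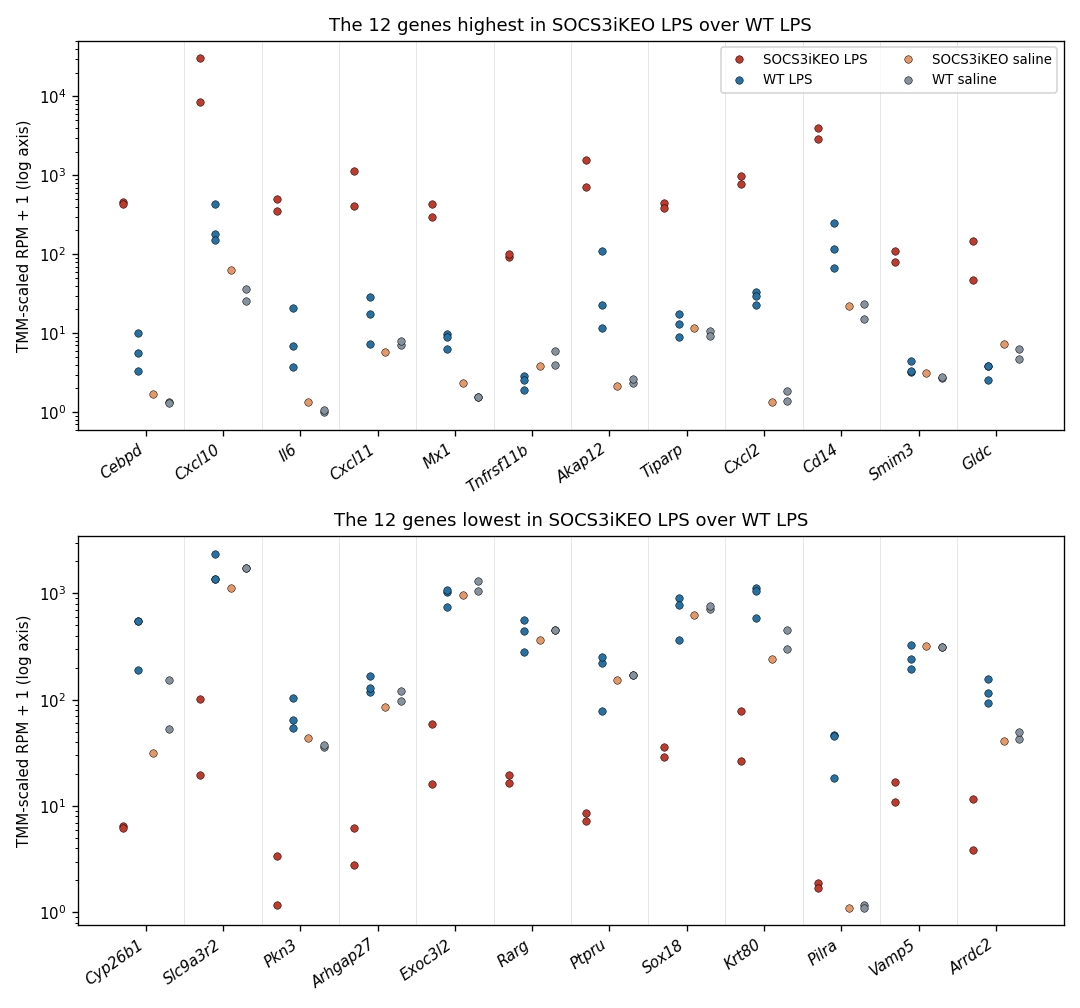
TMM-scaled RPM + 1 (y axis, log scale) of the 12 genes per direction named for the size of their log2 fold change, under the criteria above, of SOCS3iKEO LPS over WT LPS, each point 1 library, in the order SOCS3iKEO LPS, WT LPS, SOCS3iKEO saline, WT saline. SOCS3iKEO LPS libraries stand apart from all others for 23 of the 24 genes, and for Pilra they lie between WT LPS and the saline libraries.

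Genes called lower included retinoic acid and endothelial regulators. Cyp26b1, an enzyme that degrades retinoic acid (chromosome 6, 84571414 to 84593908, minus strand), was at 5.48 and 5.20 scaled RPM in SOCS3iKEO LPS, against 189.7, 547 and 548 in WT LPS (log2 fold change -5.93, SE 0.53, adjusted p = 0.000101). Rarg, a retinoic acid receptor (chromosome 15, 102234938 to 102257517, minus strand), was at 18.6 and 15.3 scaled RPM in SOCS3iKEO LPS, against 278, 557 and 438 in WT LPS (log2 fold change -4.52, SE 0.28, adjusted p = 3.37e-05). Sox18, a transcription factor of blood and lymphatic endothelium (chromosome 2, 181669836 to 181671640, minus strand), was at 27.9 and 34.9 scaled RPM in SOCS3iKEO LPS, against 362, 909 and 772 in WT LPS (log2 fold change -4.30, SE 0.35, adjusted p = 8.13e-05). All 3 were lower in both SOCS3iKEO LPS libraries than in the saline libraries too. For Cyp26b1 the saline libraries stood at 30.5 scaled RPM in SOCS3iKEO and at 152.7 and 51.8 in WT, a difference that did not pass (limma). Slc9a3r2, a PDZ scaffold (chromosome 17, 24639286 to 24650327, minus strand), was at 18.7 and 102 scaled RPM in SOCS3iKEO LPS, against 1374, 2352 and 1355 in WT LPS (log2 fold change -5.19, SE 0.57, adjusted p = 0.000200). Pkn3, a protein kinase gene (chromosome 2, 30077684 to 30091022, plus strand), was at 0.177 and 2.40 scaled RPM in SOCS3iKEO LPS, against 53.6, 103 and 63.3 in WT LPS (log2 fold change -5.16, SE 0.43, adjusted p = 9.07e-05), with 1 and 24 reads in SOCS3iKEO LPS. Arhgap27, which encodes a GTPase-activating protein (chromosome 11, 103331497 to 103363692, minus strand), was at 1.77 and 5.20 scaled RPM in SOCS3iKEO LPS, against 118, 165 and 129 in WT LPS (log2 fold change -5.05, SE 0.33, adjusted p = 3.83e-05). The SOCS3iKEO LPS libraries differed several-fold from each other at Slc9a3r2 and Pkn3. Exoc3l2, an exocyst-related gene (chromosome 7, 19463331 to 19496762, plus strand), was at 15.2 and 58.3 scaled RPM in SOCS3iKEO LPS, against 736, 1026 and 1084 in WT LPS (log2 fold change -4.92). Ptpru, a receptor tyrosine phosphatase (chromosome 4, 131768457 to 131838288, minus strand), was at 6.18 and 7.61 scaled RPM in SOCS3iKEO LPS, against 77.8, 220.1 and 252 in WT LPS (log2 fold change -4.38).

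Krt80, a keratin gene (chromosome 15, 101347444 to 101370162, minus strand), was at 25.3 and 77.8 scaled RPM in SOCS3iKEO LPS, against 583, 1110 and 1046 in WT LPS (log2 fold change -4.27). Pilra, an inhibitory receptor known from myeloid cells (chromosome 5, 137821952 to 137836281, minus strand), was at 0.883 and 0.701 scaled RPM in SOCS3iKEO LPS, against 17.5, 45.7 and 45.0 in WT LPS (log2 fold change -4.25), and the saline libraries held 1 to 3 reads. The WT LPS libraries were thus the high ones for Pilra. Vamp5, a vesicle SNARE gene (chromosome 6, 72368794 to 72380468, minus strand), was at 9.89 and 15.8 scaled RPM in SOCS3iKEO LPS, against 194, 327 and 242 in WT LPS (log2 fold change -4.21). Arrdc2, an arrestin-domain gene (chromosome 8, 70835129 to 70839720, minus strand), was at 2.83 and 10.6 scaled RPM in SOCS3iKEO LPS, against 91.7, 155 and 114 in WT LPS (log2 fold change -4.15). The adjusted p of these 6 genes without a printed p lay between 3.37e-05 and 0.000170 (limma).

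Most interferon-stimulated genes were called higher on the TMM scale. Of 24 of 26 tested, 19 passed as higher and 1 as lower on the TMM scale, and 12 and 1 as deposited, with a median log2 fold change of 1.52 on the TMM scale and 0.96 as deposited. Rsad2 (viperin) was at 2964 and 1122 scaled RPM in SOCS3iKEO LPS, against 210.4, 217 and 99.7 in WT LPS. Mx2 was at 247 and 109 scaled RPM in SOCS3iKEO LPS, against 10.3, 9.93 and 6.22 in WT LPS. Oasl1 was at 1452 and 639 scaled RPM in SOCS3iKEO LPS, against 184, 120.5 and 91.3 in WT LPS. SOCS3iKEO LPS 1 was the higher of its group at all 3, and both SOCS3iKEO LPS libraries exceeded every WT LPS library, with log2 fold changes of 3.45, 4.10 and 2.92. Of 10 of 16 listed interferon-gamma GTPase genes tested, 5 passed as higher and 1 as lower on the TMM scale, and 3 and 2 as deposited. Among guanylate-binding proteins, Gbp2 (2.47), Gbp3 (2.29) and Gbp5 (2.13), which interferon-gamma induces, were called higher on both scales. They come from a cluster of close relatives that may share reads. The transcription factors split, with Irf5 (2.32) and Irf7 (1.67) higher and Irf3 (-2.43) and Irf2 (-1.51) lower. For MHC class I, 10 passed as higher and 1 as lower on the TMM scale, and 3 and 1 as deposited, of 15 of 17 tested, so the count depends on the scale. H2-D1 was at 4986 and 4706 scaled RPM in SOCS3iKEO LPS, against 1766, 1669 and 1786 in WT LPS and belongs to a family whose members may share reads. Of 8 of 9 MHC class II genes, 0 passed as higher and 1 as lower on the TMM scale, and 0 and 3 as deposited, and the one on both was Ciita, the class II transactivator (-1.57), not called without SOCS3iKEO LPS 1 (-1.38), WT LPS 1 (-1.31) or WT LPS 2 (-1.31).

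Immediate early genes, the first transcription factors that stimulated cells make, were called higher in nearly all cases. Of 18 of 19 tested, 17 passed as higher and 0 as lower on the TMM scale, and 15 and 0 as deposited, with a median log2 fold change of 2.17 on the TMM scale and 1.61 as deposited. Fos was at 711 and 621 scaled RPM in SOCS3iKEO LPS, against 93.1, 15.1 and 28.8 in WT LPS. Ier3 was at 268 and 196 scaled RPM in SOCS3iKEO LPS, against 49.0, 15.8 and 23.2 in WT LPS. WT LPS 1 was the highest WT LPS library at both, and the groups did not overlap. The MAP kinase phosphatases and other inhibitors of this pathway gave 10 of 12 higher on the TMM scale and 9 as deposited, where 1 was lower. Dusp2 was at 41.2 and 34.2 scaled RPM in SOCS3iKEO LPS, against 1.6, 0.347 and 1.26 in WT LPS (log2 fold change 4.27, SE 0.32, adjusted p = 6.69e-05), and Dusp5 (4.00), Dusp1 (2.82) and Dusp10 (2.79) were also called higher on both scales. Of 16 of 17 NF-kB targets and feedback genes, 10 passed as higher and 0 as lower on the TMM scale, and 6 and 3 as deposited. Rel, an NF-kB subunit, was at 357 and 201.4 scaled RPM in SOCS3iKEO LPS, against 21.0, 22.6 and 26.2 in WT LPS (log2 fold change 3.48, SE 0.27, adjusted p = 7.05e-05). Nfkbiz (2.17), Birc3 (2.02) and Tnfaip3 (1.99), which encodes the NF-kB inhibitor A20, were called higher on both scales. Zfp36, whose protein destabilises cytokine mRNAs, was at 2072 and 1389 scaled RPM in SOCS3iKEO LPS, against 361, 221 and 263 in WT LPS (2.62). In the Toll-like receptor list, 7 passed as higher and 3 as lower on the TMM scale, and 4 and 4 as deposited, of 15 of 19 tested, with Tlr3 higher (2.36) and Irak4, a kinase of this pathway, lower (-1.81).

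Some leukocyte adhesion molecules of the endothelial surface were called higher. Of 13 of 16 tested, 8 passed as higher and 1 as lower on the TMM scale, and 5 and 3 as deposited. Selp, P-selectin, was at 1023 and 653 scaled RPM in SOCS3iKEO LPS, against 63.6, 20.2 and 33.2 in WT LPS (log2 fold change 4.5, SE 0.42, adjusted p = 0.000121). Sele, E-selectin, was at 290.2 and 221 scaled RPM in SOCS3iKEO LPS, against 30.4, 17.7 and 28.9 in WT LPS (log2 fold change 3.29, SE 0.28, adjusted p = 9.38e-05). Vcam1 was at 1054 and 716 scaled RPM in SOCS3iKEO LPS, against 183, 148 and 90.3 in WT LPS (log2 fold change 2.68, SE 0.32, adjusted p = 0.000289), and is also made by injured tubule cells. These adhesion genes showed no overlap between groups. After saline Selp and Sele were higher in the SOCS3iKEO library (6.56 and 6.79 scaled RPM) than in the WT libraries (1.11 and 0.646 for Selp, 1.67 and 1.399 for Sele), which did not pass (limma).

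Pan-endothelial markers were called in both directions at about the shares of all genes tested (24% higher and 26.7% lower on the TMM scale). Of the 20 pan-endothelial markers, 5 passed as higher and 5 as lower on the TMM scale, and 3 and 11 as deposited, with a median log2 fold change of -0.29 on the TMM scale and -0.85 as deposited. Cdh5, VE-cadherin, whose regulatory region drives the Cre in these mice, was at 1493 and 1921 scaled RPM in SOCS3iKEO LPS, against 369, 313 and 339.6 in WT LPS (log2 fold change 2.31, SE 0.20, adjusted p = 9.47e-05). Kdr, VEGF receptor 2, was at 46.8 and 207 scaled RPM in SOCS3iKEO LPS, against 353, 441 and 458 in WT LPS (log2 fold change -2.06, SE 0.51, adjusted p = 0.00868), and SOCS3iKEO LPS 1 lay far under SOCS3iKEO LPS 2. Kdr was not called with a term for Y-linked reads (-1.74) or with no filter (-2.10). Tek, the angiopoietin receptor Tie2, was at 30.9 and 27.2 scaled RPM in SOCS3iKEO LPS, against 70.3, 149 and 133 in WT LPS (-1.91). Its antagonist ligand Angpt2 went the other way, at 164 and 551 scaled RPM in SOCS3iKEO LPS, against 52.0, 35.9 and 28.0 in WT LPS (2.98). Ramp2, part of the adrenomedullin receptor, was at 29.1 and 59.2 scaled RPM in SOCS3iKEO LPS, against 257, 278 and 210.1 in WT LPS (-2.54), and Adm, adrenomedullin, at 92.2 and 203 scaled RPM in SOCS3iKEO LPS, against 33.4, 17.6 and 10.4 in WT LPS (2.83). For both pairs the receptor gene was lower and the ligand gene higher. Of 20 of 20 endothelial transcription factors, 9 passed as higher and 7 as lower on the TMM scale, and 5 and 7 as deposited. Ets2 was at 984 and 961 scaled RPM in SOCS3iKEO LPS, against 199, 203 and 150.1 in WT LPS, and Elk3 at 25.8 and 33.3 scaled RPM in SOCS3iKEO LPS, against 178, 220.2 and 215 in WT LPS. Lyl1, another such factor, was called lower, at 0 and 0.2001 scaled RPM in SOCS3iKEO LPS, against 19.9, 29.4 and 21.6 in WT LPS. In the KLF family, 9 passed as higher and 0 as lower on the TMM scale, and 6 and 0 as deposited, of 11 of 11 tested, led by Klf6 (2.59).

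Caveola and nitric oxide genes were called in the lower direction only. Of 11 of 13 tested, 0 passed as higher and 6 as lower on the TMM scale, and 0 and 9 as deposited, with a median log2 fold change of -1.12 on the TMM scale and -1.69 as deposited. Cav1, the main caveola protein, was at 31.3 and 62.5 scaled RPM in SOCS3iKEO LPS, against 231, 456 and 396 in WT LPS (log2 fold change -2.94, SE 0.34, adjusted p = 0.000269). Nos3, endothelial nitric oxide synthase, was at 31.3 and 56.1 scaled RPM in SOCS3iKEO LPS, against 256, 157 and 161 in WT LPS (log2 fold change -2.12, SE 0.31, adjusted p = 0.000672). For Nos3 the WT LPS libraries lay above the saline libraries (47.3 to 61.6) and SOCS3iKEO LPS libraries did not. In the prostanoid list, Ptgs1, the constitutive cyclooxygenase, was at 3.36 and 6.20 scaled RPM in SOCS3iKEO LPS, against 51.7, 92.2 and 83.7 in WT LPS (-3.74), while Ptgs2, the inducible one, was at 16.4 and 14.5 scaled RPM in SOCS3iKEO LPS, against 5.47, 1.25 and 1.80 in WT LPS (2.25). Tbxa2r, the thromboxane receptor, was at 0 and 0.400 scaled RPM in SOCS3iKEO LPS, against 9.10, 21.2 and 10.5 in WT LPS and was called lower. Of 17 of 18 junction genes, 4 passed as higher and 3 as lower on the TMM scale, and 4 and 7 as deposited, with TMM-scale shares at or below those of all genes. Among them was Jup, plakoglobin, at 83.7 and 103 scaled RPM in SOCS3iKEO LPS, against 766, 1250 and 1062 in WT LPS (-3.42). In Notch signalling, 4 passed as higher and 4 as lower on the TMM scale, and 2 and 4 as deposited, of 13 of 15 tested. Notch4 was at 14.8 and 38.1 scaled RPM in SOCS3iKEO LPS, against 118, 173 and 182 in WT LPS (-2.65), and the ligand Dll1 at 179 and 165 scaled RPM in SOCS3iKEO LPS, against 19.4, 8.74 and 11.4 in WT LPS (3.68).

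Clotting and protease genes were called mainly in the higher direction, with counts that depended on the scale for coagulation. Of 16 of 19 coagulation genes, 9 passed as higher and 1 as lower on the TMM scale, and 6 and 1 as deposited. F3, tissue factor, which starts clotting, was at 33.0 and 25.1 scaled RPM in SOCS3iKEO LPS, against 2.27, 1.53 and 2.98 in WT LPS (log2 fold change 3.22, SE 0.29, adjusted p = 0.000101). Plat, tissue plasminogen activator, was at 9191 and 4196 scaled RPM in SOCS3iKEO LPS, against 1927, 691 and 1252 in WT LPS (2.39). Of 13 of 17 matrix proteases and inhibitors, 8 passed as higher and 0 as lower on the TMM scale, and 8 and 2 as deposited. Adamts4, a proteoglycan-cleaving protease, was at 1177 and 721 scaled RPM in SOCS3iKEO LPS, against 98.7, 51.6 and 101 in WT LPS (3.51). Bmp2 was at 44.5 and 33.5 scaled RPM in SOCS3iKEO LPS, against 1.77, 1.53 and 1.35 in WT LPS, with a log2 fold change of 3.96. Tissue factor and Bmp2 were low in every library but those of SOCS3iKEO LPS. The glycocalyx list was mixed: of 14 of 18 tested, 6 passed as higher and 4 as lower on the TMM scale, and 6 and 5 as deposited. Its log2 fold changes ran from -1.60 to 3.38 on the TMM scale. Of its syndecans, which carry heparan sulfate, Sdc1 was at 36.4 and 31.4 scaled RPM in SOCS3iKEO LPS, against 2.86, 2.15 and 2.07 in WT LPS (3.38). Sdc3 (2.45) and Sdc4 (2.75) were also higher on both scales, Sdc4 not without SOCS3iKEO LPS 1 (2.60).

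Most calls in the sterol, fatty acid uptake and cell cycle lists were in the lower direction. Of 17 of 19 cholesterol synthesis and sterol genes, 0 passed as higher and 11 as lower on the TMM scale, and 0 and 14 as deposited, with a median log2 fold change of -1.12 on the TMM scale and -1.64 as deposited. Lss, lanosterol synthase, was at 0.707 and 2.20 scaled RPM in SOCS3iKEO LPS, against 13.2, 9.93 and 9.38 in WT LPS. Mvd, of the mevalonate pathway, was at 4.42 and 2.90 scaled RPM in SOCS3iKEO LPS, against 16.7, 27.2 and 16.1 in WT LPS. Both were called lower (-2.33 and -2.15) with no overlap between groups. Of 12 of 13 fatty acid uptake genes, 2 passed as higher and 7 as lower on the TMM scale, and 1 and 8 as deposited, with Gpihbp1, the capillary anchor of lipoprotein lipase, at 24.2 and 56.4 scaled RPM in SOCS3iKEO LPS, against 114, 156 and 199.6 in WT LPS (-2.01). Of 17 of 19 cell cycle genes, 1 passed as higher and 10 as lower on the TMM scale, and 0 and 12 as deposited. Ccna2, cyclin A2, was at 0.707 and 4.30 scaled RPM in SOCS3iKEO LPS, against 24.3, 28.9 and 25.5 in WT LPS (-3.17). Cdkn1a, which encodes the cell cycle inhibitor p21, was at 12586 and 11743 scaled RPM in SOCS3iKEO LPS, against 3453, 3062 and 2136 in WT LPS (2.10). Glycolysis genes split, with 5 passed as higher and 4 as lower on the TMM scale, and 4 and 4 as deposited, and Hk2, hexokinase 2, was at 72.6 and 59.1 scaled RPM in SOCS3iKEO LPS, against 9.18, 2.71 and 1.98 in WT LPS (3.78). Of 15 of 16 amino acid and ATF4 genes, 9 passed as higher and 1 as lower on the TMM scale, and 6 and 3 as deposited. Atf4 was at 5882 and 4089 scaled RPM in SOCS3iKEO LPS, against 1789, 1198 and 1274 in WT LPS (1.81). Calls among oxidative phosphorylation genes depended on the scale (6 of 18 higher, against 1 higher and 1 lower as deposited), and their median changed sign between the scales (0.41 on the TMM scale and -0.12 as deposited).

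**Figure D3:**
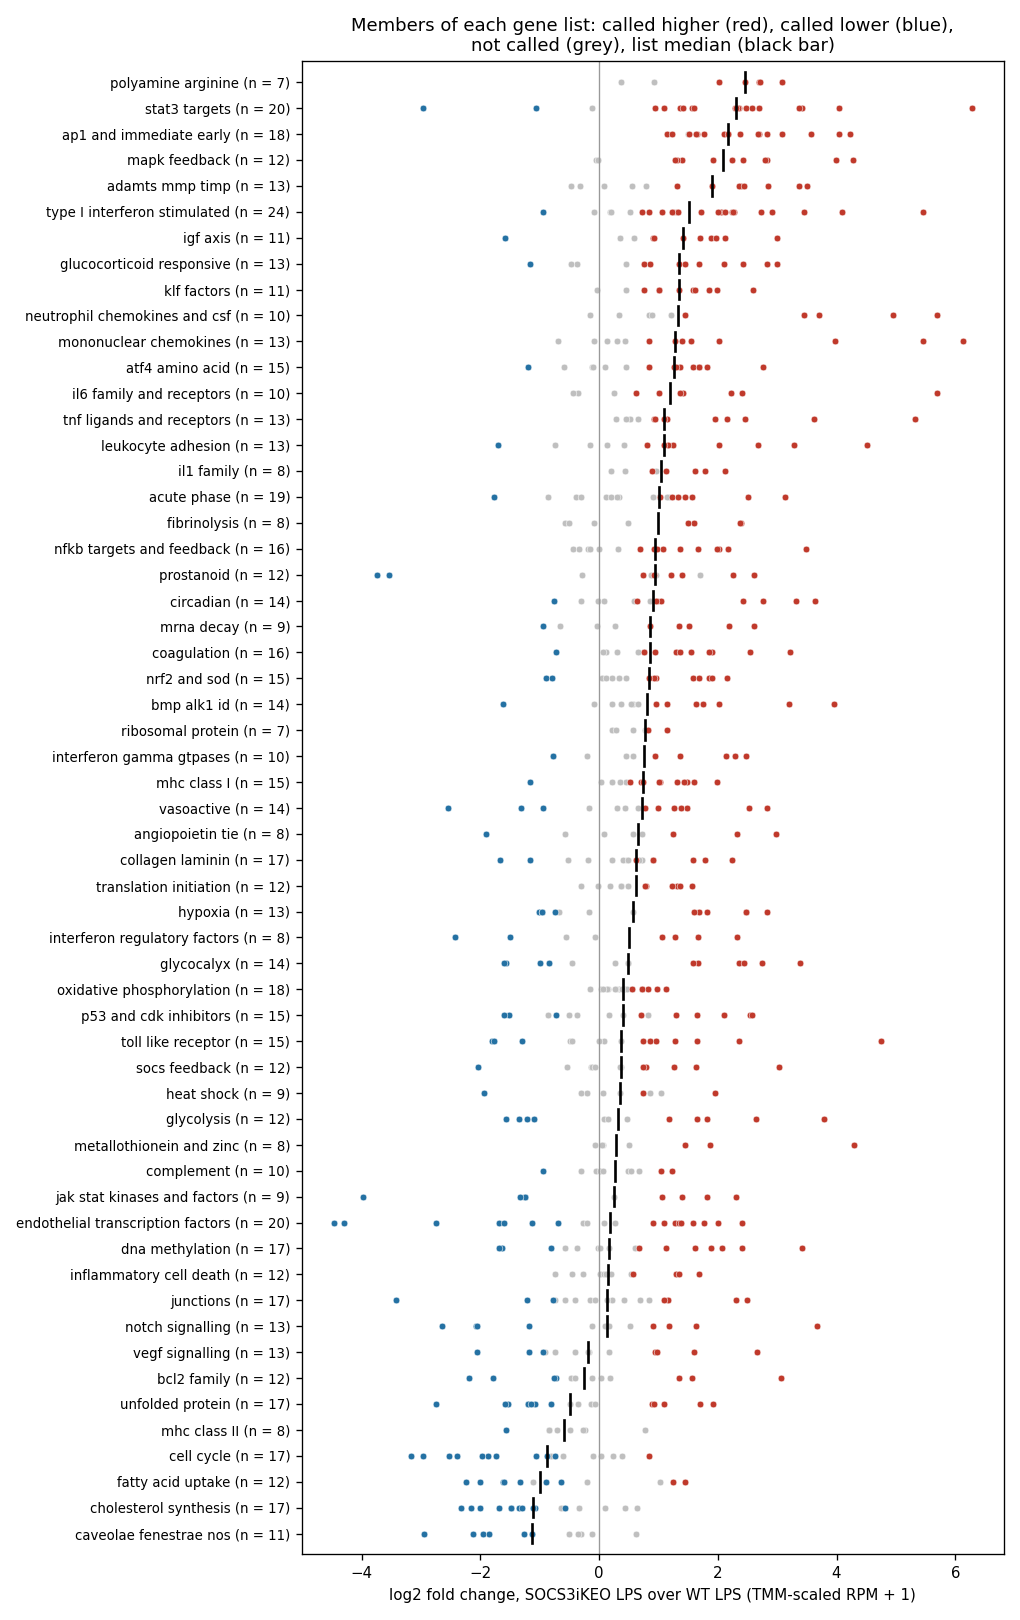
Log2 fold change of SOCS3iKEO LPS over WT LPS (x axis, TMM scale) of each tested member of 57 gene lists, ordered by list median, with the number tested in parentheses. Red points were called higher, blue lower and grey not called, and black bars are medians, which run from -1.12 for caveolae to 2.46 for polyamine and arginine genes.

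Markers of other kidney cells moved with the comparison. Of the 16 proximal tubule markers, 12 passed as higher and 0 as lower on the TMM scale, and 10 and 0 as deposited, with a median log2 fold change of 2.47 on the TMM scale and 1.92 as deposited and none at 0. Their summed level was 3751 and 2919 deposited RPM in SOCS3iKEO LPS, against 1222, 1436 and 2047 in WT LPS, 2480 in SOCS3iKEO saline and 2519 and 2664 in WT saline. For this sum WT LPS libraries were the lowest and SOCS3iKEO LPS libraries the highest. Slc5a2, the glucose transporter SGLT2, was at 43.5 and 31.8 scaled RPM in SOCS3iKEO LPS, against 4.46, 2.08 and 2.80 in WT LPS. Slc22a8, an organic anion transporter, was at 72.6 and 31.8 scaled RPM in SOCS3iKEO LPS, against 7.16, 2.15 and 3.25 in WT LPS. Miox, an inositol oxygenase of the proximal tubule, was at 1016 and 657 scaled RPM in SOCS3iKEO LPS, against 101, 71.4 and 107 in WT LPS. Summed levels of loop of Henle markers were 197 and 234 deposited RPM in SOCS3iKEO LPS, against 61.0, 78.2 and 70.3 in WT LPS. Distal convoluted tubule markers were at 301 and 279 deposited RPM in SOCS3iKEO LPS, against 171, 169.5 and 133 in WT LPS. Saline libraries held 108 to 162 deposited RPM of loop markers and 227 to 316 of distal convoluted tubule markers. None of these tubule markers was at 0 in either group. Among tubule injury genes, 7 passed as higher and 0 as lower on the TMM scale, and 7 and 1 as deposited, of 11 tested, with Sox9 at 245 and 275 scaled RPM in SOCS3iKEO LPS, against 29.6, 39.7 and 40.0 in WT LPS (2.81). This list also holds Lcn2 and Vcam1, which were reported above, and Clu, which is in the arterial endothelial list too. The part of tubule RNA in the results above was not tested.

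Neutrophil markers summed to 33.1 and 16.7 deposited RPM in SOCS3iKEO LPS, against 9.21, 7.03 and 12 in WT LPS, with 4 of 5 tested called higher. Mpo, Elane and Cxcr2 were at 0 in SOCS3iKEO LPS. In WT LPS Cxcr2 was at 0 too, and Mpo and Elane reached at most 0.084 and 0.074 deposited RPM. Macrophage and monocyte markers summed to 13.9 and 7.88 deposited RPM in SOCS3iKEO LPS, against 10.2, 5.70 and 7.91 in WT LPS. C1qa was at 0 in SOCS3iKEO LPS and at most 0.091 in WT LPS. T and NK cell markers summed to 0.357 and 0.993 deposited RPM in SOCS3iKEO LPS, against 3.10, 4.22 and 3.91 in WT LPS. Cd8a and Klrb1c were at 0 in both groups. Cd3d, Cd3e and Cd4 were at 0 in SOCS3iKEO LPS and reached at most 0.251, 0.091 and 0.419 in WT LPS, a few reads. No immune sum exceeded 33.1 deposited RPM in any library. Podocyte markers summed to 137 and 282 deposited RPM in SOCS3iKEO LPS, against 356, 538 and 462 in WT LPS. Single members did not follow this sum: of 7 of 8 tested, 3 passed as higher and 0 as lower on the TMM scale, and 1 and 3 as deposited. The podocyte list shares Podxl with the pan-endothelial list. Mural cell markers summed to 20.3 and 16.5 in SOCS3iKEO LPS, against 10.6, 10.1 and 8.45 in WT LPS. The smallest two-sided p of an exact permutation test of 2 against 3 libraries is 0.2, and the sums of the pan-endothelial, proximal tubule, neutrophil, T and NK cell, podocyte and mural lists, whose groups did not overlap, all had p = 0.2 as deposited. On the TMM scale the groups overlapped for the pan-endothelial sum (p = 0.8) and the podocyte sum (204 and 397 in SOCS3iKEO LPS, against 358, 504 and 458 in WT LPS, p = 0.4, exact permutation test). The part of leukocyte RNA in the cytokine results was not tested.

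**Figure D4:**
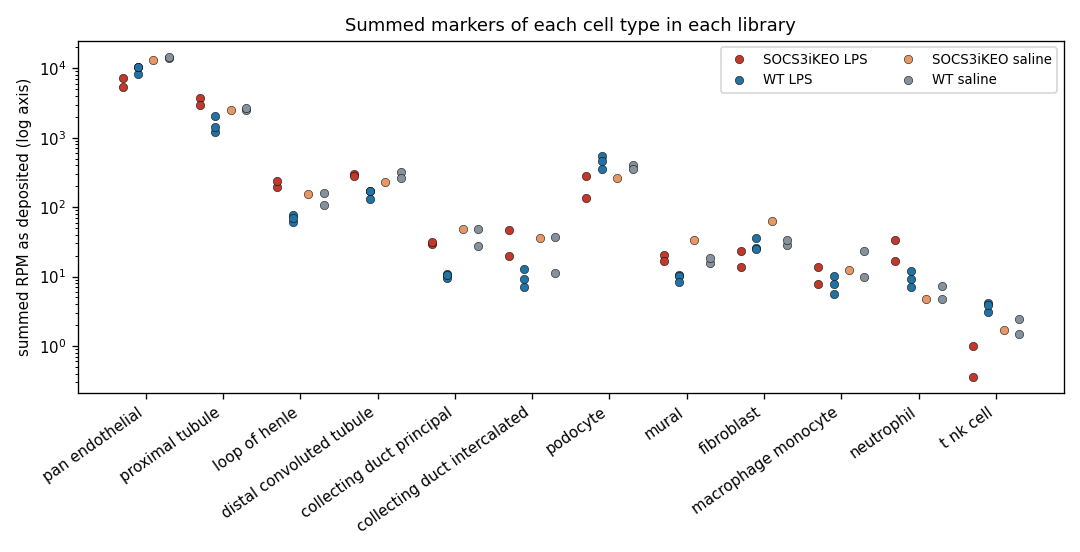
Summed RPM as deposited (y axis, log scale) of the markers of each cell type, each point 1 library, in the order SOCS3iKEO LPS, WT LPS, SOCS3iKEO saline, WT saline. On this scale pan-endothelial sums are lower in SOCS3iKEO LPS than in WT LPS, which they are not on the TMM scale, and the sums of the proximal tubule, loop, distal tubule and both collecting duct lists are higher.

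The difference between genotypes after saline stands beside the comparison. Its SOCS3iKEO mouse (7038) and its WT mice (6992 and 6995) fall in different runs of animal numbers. A run difference and the genotype difference after saline therefore cannot be told apart. With 1 SOCS3iKEO library, whose spread is taken from the other groups, limma called 0 of 12820 genes (0%), with 423 at an unadjusted p under 0.05, while edgeR called 0 and DESeq2 called 5. The difference between the genotype effects after LPS and after saline passed at 2366 genes, 1149 higher (8.96%) and 1217 lower (9.49%). The runs of animal numbers coincide with this contrast, since SOCS3iKEO LPS and WT saline form one run and WT LPS and SOCS3iKEO saline the other, so a run difference and this difference cannot be told apart. All 24 genes named above for the size of their change passed this test. They were chosen for the LPS part of this difference, so their passing is a description. Of the cytokine genes among these 24, Il6 differed by 5.30 (adjusted p = 0.0112) and Cxcl2 by 5.20 (adjusted p = 0.00281) on the log2 scale (limma). Lcn2 differed by -0.01 (adjusted p = 0.989, limma) and did not pass. After saline it was at 5.54 scaled RPM in SOCS3iKEO, against 1.67 and 1.13 in WT. The count moved with single libraries: without WT saline 1 it passed at 238 genes, without WT saline 2 at 754, without WT LPS 2 at 972, without WT LPS 3 at 1040 and without SOCS3iKEO LPS 2 at 3679.

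**Figure D5:**
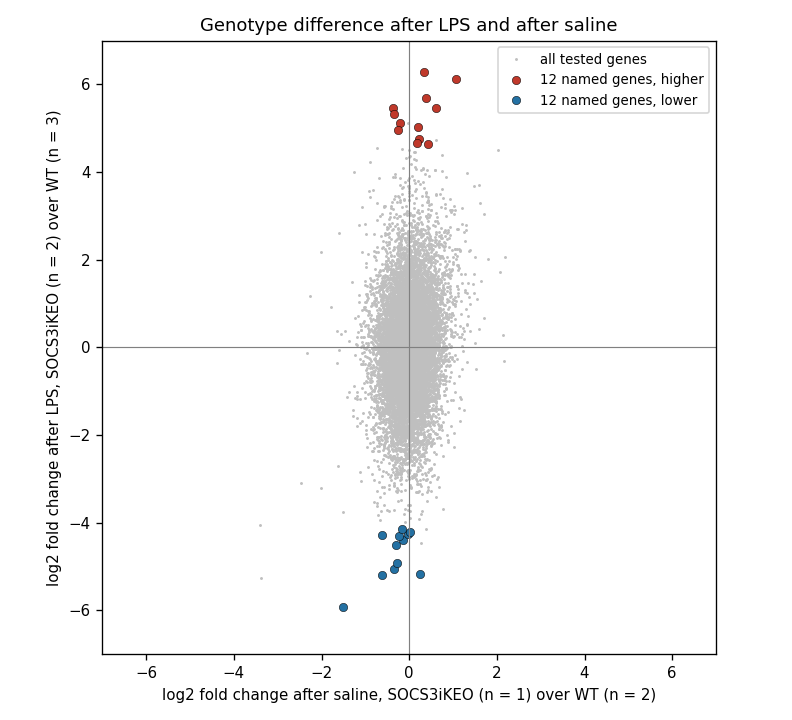
Log2 fold change of SOCS3iKEO over WT after LPS (y axis) against that after saline (x axis) for all 12820 tested genes, with the 24 named genes in colour. The named genes lie above 4 or below -4 after LPS and between -1.51 and 1.06 after saline.

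Which genes were called depended on the scale for a further set. Foxq1, a forkhead factor gene, was at 63.2 and 9.61 scaled RPM in SOCS3iKEO LPS, against 6.49, 2.08 and 1.89 in WT LPS and was called higher on the TMM scale (2.69) but not as deposited (2.16). Mrgprb1, Serpina1f, Acox2 and Spata25 behaved likewise, with log2 fold changes of 2.06, 1.96, 1.90 and 1.89 on the TMM scale. Without SOCS3iKEO LPS 1 none of these 5 was called, with log2 fold changes of 1.4 for Foxq1, 0.64 for Mrgprb1, 1.09 for Serpina1f, 1.18 for Acox2 and 0.56 for Spata25. In the other direction Bop1, a ribosome assembly gene, was at 15.4 and 54.8 scaled RPM in SOCS3iKEO LPS, against 113, 53.02 and 49.5 in WT LPS and was called lower as deposited (-1.71) but not on the TMM scale (-1.17), as were Hist1h3a, Ddx51, Ids and Rnf121 (as deposited -1.73, -1.66, -1.62 and -1.62). Transcript GC content moved weakly with the difference: the median log2 fold change was 0.03 in the fifth of genes with the lowest GC content and -0.22 in the fifth with the highest, and 22.8% and 34.1% of those genes were called lower. After a correction for GC content and length, 2980 genes were higher and 3320 lower.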

How the data were processed

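RPM values (reads of an amplicon relative to 1000000 panel reads) were deposited by the authors in 1 table for 8 libraries of an Ion AmpliSeq mouse transcriptome panel, per the labels' protocols. The submitters' processing notes name mm10 and Transcriptome Analysis Console, and nothing used here names the aligner or counter. All values were whole multiples of 1 read (100% within 0.1 read), so reads were recovered for filtering and for count tests. Since the unit was RPM, limma 3.58.1 in R 4.3.3 replaced edgeR as the test, on log2(TMM-scaled RPM + 1), with 1 mean per group over all 8 libraries, genes kept by edgeR's filterByExpr (10 reads, 15 in total), and Benjamini-Hochberg adjustment at 0.05. RPM as deposited, edgeR 4.0.16, DESeq2 1.42.0, other scalings, pseudocounts, filters and left-out libraries were alternatives. Named genes were Socs3, 12 per direction by size of change, up to 4 per list and 5 per direction called on 1 scale alone. Members and lists were chosen with earlier results of these data known. On simulated data of this comparison (12357 genes), 71.7% of 99 genes changed by 2 on the log2 scale were recovered, and 18.6% of 97 changed by 1. The real comparison called 6502 of 12820 genes, and recovery with so large a share of changed genes was not tested. Permutation tests went through all 10 arrangements of the 5 LPS libraries. DNA methylation data were not analysed here.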

Additional observations from a re-analysis of the deposited data

Results flagged for a closer look

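The genotype difference after LPS differed from that after saline at 2366 genes by limma's interaction test, and at 238 without WT saline 1. The 24 genes named for the size of their change after LPS are among them, and since they were chosen for that change, the values are a description. On the log2 scale the genotype difference after LPS minus that after saline was 5.94 for Cebpd, 5.84 for Cxcl11, 5.66 for Tnfrsf11b, 5.33 for Akap12, 5.30 for Il6, 5.20 for Cxcl2, 5.07 for Cxcl10, 4.85 for Mx1, 4.81 for Tiparp, 4.53 for Cd14, 4.49 for Smim3 and 4.23 for Gldc. It was -5.40 for Pkn3, -4.70 for Arhgap27, -4.65 for Exoc3l2, -4.56 for Slc9a3r2, -4.41 for Cyp26b1, -4.24 for Ptpru, -4.22 for each of Rarg, Pilra and Vamp5, -4.06 for Sox18, -3.98 for Arrdc2 and -3.66 for Krt80. The saline side rests on 1 SOCS3iKEO library. SOCS3iKEO LPS and WT saline mice form one run of animal numbers and WT LPS and SOCS3iKEO saline mice the other, so a run difference and this contrast cannot be told apart.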

How the results depend on the processing

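SOCS3iKEO LPS against WT LPS gave 3075 genes higher and 3427 lower, and 1720 and 5346 on RPM as deposited, 1665 and 5322 with edgeR without TMM, and 0 and 0 in the 5 libraries without Y-linked reads. Leaving out 1 library gave 2207 to 3219 higher and 2432 to 3529 lower. After saline 0 genes were called, and 5 with DESeq2, 1 with a pseudocount of 0.1 and 2 with no filter. The interaction was called at 2366 genes, at 844 with no filter, at 0 in the libraries without Y-linked reads (1400 at an unadjusted p under 0.05), and at 238 to 3679 with 1 library left out. The Socs3 log2 fold change of -0.11 ranged from -0.60 to 0.57 with 1 library left out (0.10 without SOCS3iKEO LPS 2, 0.57 without WT LPS 1) and was 0.0839 after the GC content and length correction, which was added after seeing the data. It was -1.44 in the libraries without Y-linked reads, -1.13 with edgeR without TMM and -0.986 with a term for Y-linked reads, and no setting called it. Of 6031 pairs of a named gene and a setting, 5470 kept direction and call, 536 lost the call, 23 gained it and 2 reversed (with a term for Y-linked reads, Jchain at 0.0275 and Cfd at -0.166). In the libraries without Y-linked reads 278 of these losses fell, among them all 24 genes named for the size of their change, which kept their calls under the other 20 settings. For named genes, 9 of the settings were chosen after seeing the data. The causes were not tested. No paired analysis was possible because the replicate numbers only name libraries in accession order and pair no mice.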
